A study of Mus musculus with 20 samples.

Results

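The 84 genes described here encode the proteins of the cytosolic ribosome of the mouse. They were taken by name from 24411 genes of a count table: symbols that start with Rps or Rpl and a number, with at most a short ending, the stalk genes Rplp0, Rplp1 and Rplp2, and Rpsa, leaving out pseudogenes and the Rps6k kinases. The choice used no measured value. Of the 84, 33 encode small-subunit proteins and 51 large-subunit proteins. The name rule misses, among others, Fau, which carries a ribosomal protein fused to a ubiquitin-like protein, and Rpl36al; it takes in Rps4l, whose GENCODE entry is a transcribed processed pseudogene. A filter on low counts kept 81 of the 84, as 15284 genes of the whole table. Rpl10l, Rpl39l and Rpl3l, copies known mainly from testis or muscle, were removed, with at most 3, 13 and 10 counts in a library.

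The cells were cultured cerebellar granule neurons, the small glutamatergic neurons that make up most of the cerebellum. Kdm6b is an enzyme that removes methyl groups from lysine 27 of histone H3, and the study asked whether its enzymatic domain alone restores expression after knockdown. The 4 kinds of culture compared had 5 libraries each. The control cultures had no knockdown; the labels give neither what they received in its place nor the strain, sex and age of the animals or the promoters used. The shKdm6b cultures received an shRNA against mouse Kdm6b, and the 2 rescue groups received the same shRNA together with the human KDM6B enzymatic domain, in an active form (active rescue) or a dead form (dead rescue). Where virus was given it was added on day 1 in culture, the cultures were treated with AraC, which stops dividing cells, on day 2, and RNA was taken on day 7. All groups carry replicate numbers 1 to 5, whose meaning the labels leave unsaid. Libraries held 14200745 to 21179300 counts.

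A ribosome has a small subunit that reads the mRNA and a large subunit that joins amino acids, and each holds many proteins in fixed proportion around ribosomal RNA. The genes of these proteins are among the most highly transcribed of a cell, and are known for being regulated together. Most of their mRNAs start with a C followed by a run of pyrimidines, the terminal oligopyrimidine tract, through which mTOR and LARP1 control their translation and stability. In neurons some are also translated in axons and dendrites.

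To show what the members share, transcription starts from RefSeq (GRCm38.p6) were searched on the coding strand for a C lying within 5 bases of the start and followed by at least 4 bases that are each C or T. The table matched 63 of the 84 members, and 29 of these, 46%, held such a tract, against 3707 of 17161 other genes, 21.6%, with 1.19 and 1.207 starts listed per gene. A listed start can lie some bases from the one that is used, so a missing match says nothing about the mRNA. The 30 bases around the start, from 15 before it to 15 after, are printed 5′ to 3′ with the tract in capitals. They are given for members that moved much or little between libraries, and for Rpl22l1, which did neither. The tract of Rpl13a, 14 bases long, runs past the end of the printed bases. Rpl13a lies at chr7:45125558-45128761 on the minus strand, Rpl22l1 at chr3:28805436-28807424 on the plus strand and Rps15a at chr7:118104372-118116188 on the minus strand; Rps19 (chr7:24884371-24889806, plus) and Rpl4 (chr9:64173375-64178666, plus) had no match.
Rpl13a: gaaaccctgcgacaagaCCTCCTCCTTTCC
Rpl22l1: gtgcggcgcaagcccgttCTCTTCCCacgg
Rps15a: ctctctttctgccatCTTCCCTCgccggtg
Rps19: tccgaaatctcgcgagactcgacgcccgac
Rpl4: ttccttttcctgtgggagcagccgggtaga

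Together the 84 genes took between 1.49 and 5.50% of all counts of a library. In numbers 1 to 5 the share was 1.95, 1.49, 2.39, 5.06 and 2.07% in the control libraries and 1.81, 1.58, 2.61, 5.50 and 2.17% in shKdm6b. It was 1.82, 1.85, 3.12, 2.64 and 2.20% in the active rescue and 1.65, 2.19, 3.13, 3.56 and 2.14% in the dead rescue. Control 4 and shKdm6b 4 lay above all other libraries, while active rescue 4 lay below active rescue 3. By group the mean share was 2.59 ± 1.42% in control, 2.73 ± 1.59% in shKdm6b, 2.32 ± 0.553% in the active and 2.53 ± 0.785% in the dead rescue (SD, n = 5). The 4 groups overlapped, and the spread within a group was larger than the distance between any of their means. The 2 subunits moved together: large-subunit genes held 1.47 to 1.56 times the counts of small-subunit genes in every library.

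**Figure D1:**
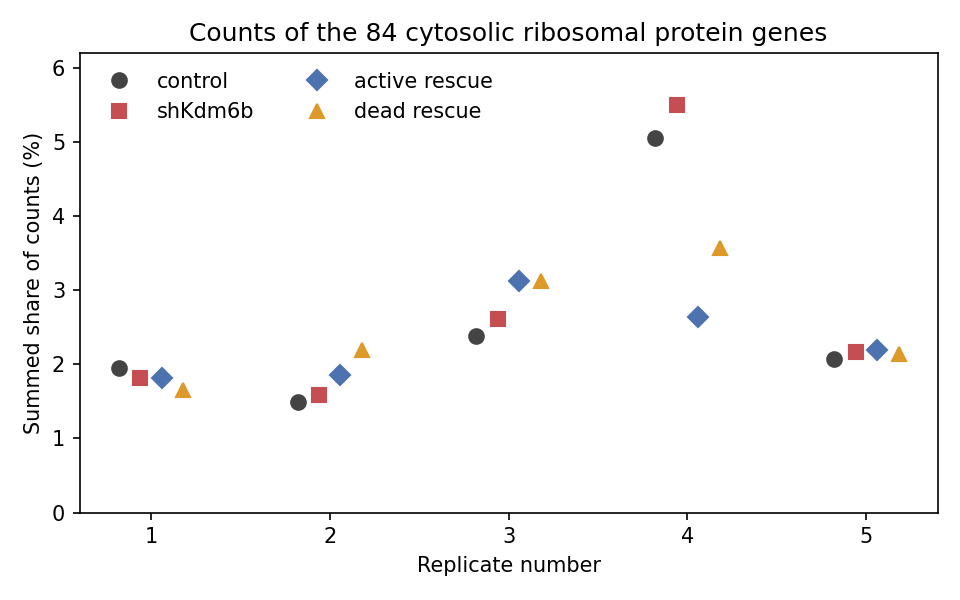
Summed share of the 84 genes in percent of a library's counts (y axis) against the replicate number (x axis), with 1 point per library and a marker for each group. The libraries numbered 4 of control (5.06%) and shKdm6b (5.50%) stand above the other 18, which lie between 1.49 and 3.56%.

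Kdm6b itself, the target of the knockdown, was at 141, 171, 139, 81.2 and 187 CPM (counts scaled to library size with TMM factors) in control 1 to 5 and at 99.4, 112, 89.3, 37.9 and 76.4 CPM in shKdm6b 1 to 5, lower in every same-numbered pair. In numbers 1 to 5 it was at 290, 312, 266, 73.2 and 119 CPM in the active rescue. In the dead rescue it was at 272, 250, 192, 54.9 and 109 CPM. Both rescues lay above control in numbers 1 to 3 and below it in numbers 4 and 5. In the rescues, reads of the human domain may be counted with the mouse gene. The cultures expressed the granule neuron markers (12 of 12 listed), but also those of other cells. Over the libraries numbered 4, summed astrocyte markers reached 11733 to 15235 CPM against 2139 to 6953 CPM in all others, and granule neuron markers 1920 to 3103 CPM against 4374 to 7252 CPM. The fibroblast list was highest in number 5, with 24726 to 32180 CPM. The list of interneuron and Purkinje cell markers summed to 113 to 378 CPM, with the interneuron gene Gad1 at 51.1 to 228 CPM, while the Purkinje cell gene Pcp2 was at 0 in all 20 libraries. The precursor of ribosomal RNA, Rn45s, took 2.43 to 7.24% of counts in numbers 1 to 3 and 0.206 to 0.611% in numbers 4 and 5, and the nuclear RNA Malat1 was at 4422 to 6888 CPM in numbers 1 to 3 and at 217 to 997 CPM in numbers 4 and 5.

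Members were expressed far above the typical gene. Their median was 306 CPM over 20 libraries against 25.9 CPM over all tested genes, and 66 of 81 lay in the top 10% of tested genes (from the 90th percentile). Per kilobase of transcript, the highest levels were those of Rplp1, an acidic protein of the stalk that binds elongation factors, at 1081 CPM per kb, Rpl13 at 794 CPM per kb and Rps12 at 774 CPM per kb. Rps27, Rpl26 and Rpl30 were lowest, at 10.3, 21.6 and 22.7 CPM per kb.

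Low counts of some members have a near-identical copy beside them. The transcripts of Rps27 and Rps27rt were identical over 341 of 341 aligned bases, and those of Rpl34 and Rpl34-ps1 over 352 of 354. Of the counts of Rps27 and Rps27rt together, Rps27 held 0.561 to 2.04% in numbers 1, 2, 3 and 5 and 4.58, 3.64, 3.38 and 7.37% in control, shKdm6b, active rescue and dead rescue 4. Rpl34 held 8.96 to 18.7% of the counts of its pair. The split of such reads between copies rests on the counting method, so the values of Rps27 and Rpl34 are uncertain. The estimated counts of Rpl26 and Rpl30 were not whole numbers in any of the 20 libraries. That also held for members with high levels, among them Rpl5, Rpl14 and Rpl31, with means of 359, 304 and 302 CPM. It therefore does not mark the low members. Whether the low values of Rpl26 and Rpl30 rest on how reads were divided was not tested. Rpl37rt, 99.7% identical to Rpl37, took at most 10.2 CPM against 107 to 370 CPM for Rpl37.

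The first question was whether knockdown of Kdm6b changed these genes. It was answered with 2 fits of edgeR's quasi-likelihood test, without and with the replicate number as a block, since libraries of the same number deviated together from their group means. None of the 81 members passed an adjusted p of 0.05 in shKdm6b against control in either fit, where 0.00654% of all genes passed without and 4.14% with pairing. At an unadjusted p under 0.05 the count was also 0 in both fits of edgeR, and DESeq2 called 0. The share of all genes at that unadjusted threshold is not reported, here or in the comparisons below. With pairing the median log2 fold change of the members was 0.06, against 0.01 over all genes, and 68 of 81 were above 0. Without the libraries numbered 4 the median was 0.014, with 51 of 81 above 0. The share of all genes above 0 is not reported, here or in the comparisons below. Nor is the median over all genes without the libraries numbered 4. Members moved together within a library, so their counts above 0 are not counts of independent genes.

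The stalk and the named-role members show how near the 2 groups lay. Rplp0, the base of the stalk, was at 627, 497, 843, 1217 and 791 CPM in control 1 to 5 and at 620, 537, 857, 1284 and 847 CPM in shKdm6b 1 to 5. In both groups number 2 was lowest and number 4 highest, and the groups overlapped over nearly their whole range. Rps6, the substrate of the S6 kinases, averaged 424 ± 155 CPM in the control and 435 ± 184 CPM in the shKdm6b libraries. Rpsa, which is also the laminin receptor, averaged 809 ± 533 and 834 ± 586 CPM (SD, n = 5). Rpl5 and Rpl11, which with 5S RNA bind MDM2, averaged 358 ± 120 and 324 ± 190 CPM over the control libraries and 373 ± 134 and 345 ± 209 CPM over the shKdm6b libraries.

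The members with the smallest p in this comparison were Rpl22l1 and Rpl22. Rpl22l1, the paralogue of Rpl22, was at 24.4, 19.8, 28.1, 65.8 and 29.1 CPM in control 1 to 5 and at 21.4, 16.0, 26.9, 58.5 and 23.6 CPM in shKdm6b. It was lower in shKdm6b in 5 of 5 same-numbered pairs, the single member with that pattern, while the ranges of the groups overlapped. Its paired log2 fold change was -0.20 ± 0.19 (SE; adjusted p = 0.712, edgeR). Rpl22 was at 137, 112, 162, 256 and 127 CPM in control 1 to 5 and at 146, 121, 178, 284 and 149 CPM in shKdm6b 1 to 5, higher in 5 of 5 pairs (0.14 ± 0.14, adjusted p = 0.738). In all, 20 of 81 members (24.7%) moved the same way in 5 of 5 pairs, 19 of them higher, against 24.8% of all genes.

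The rescues were next set against shKdm6b, the group that carries the same shRNA. In the active rescue 0 members passed with or without pairing (0.00654 and 0% of all genes), and 0 had an unadjusted p under 0.05. The paired median was -0.12, against 0.01 over all genes, with 3 of 81 above 0. In the dead rescue 0 members passed (0% of all genes in both fits) and 0 had an unadjusted p under 0.05 in edgeR. Its paired median was -0.03, against -0.002 over all genes, and 15 of 81 were above 0. DESeq2 called 0 members in both comparisons. The 2 comparisons share their shKdm6b libraries, so their values are not independent of each other.

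The direction of these medians rests on the libraries numbered 4. Active rescue 4 lay below shKdm6b 4 for 81 of 81 members, by a median of -1.16 on the log2 scale. In numbers 2 and 3 the active rescue was above shKdm6b for 79 and 80 of 81 members, by medians of 0.25 and 0.31, and in numbers 1 and 5 the medians were -0.04 and 0.02. In the dead rescue the medians against shKdm6b were -0.69 in number 4, 0.44 and 0.30 in numbers 2 and 3, -0.18 in number 1 and -0.03 in number 5. Without the libraries numbered 4 the paired medians turned to 0.13 in the active and 0.15 in the dead rescue, with 79 of 81 members above 0 in each, and no member passed. No member moved the same way in all 5 pairs of either comparison, where 4.30 and 3.28% of all genes did.

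**Figure D2:**
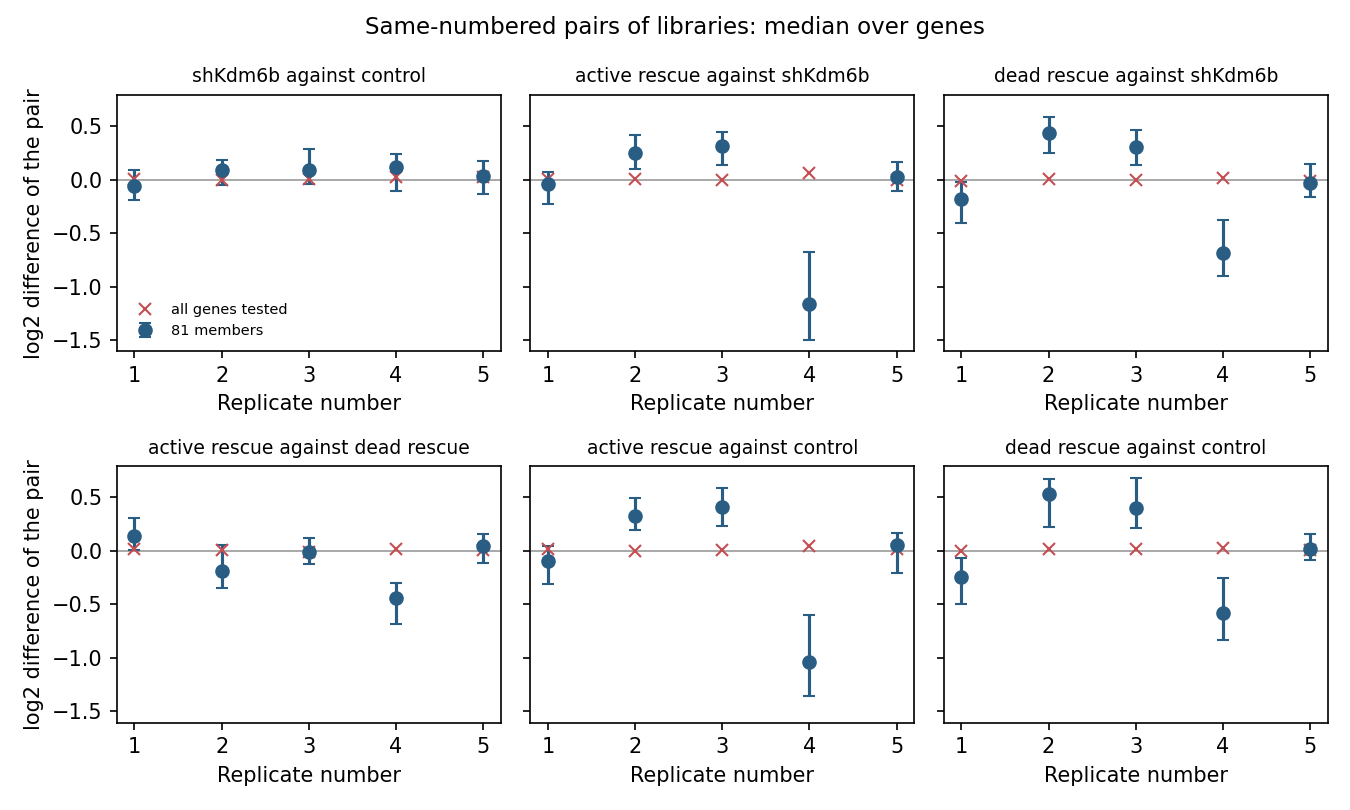
Median log2 difference of CPM between the 2 libraries of a pair (y axis) for each replicate number (x axis) in the 6 comparisons. Blue points are the median over 81 members with bars from the 5th to the 95th percentile of members, and red crosses the median over all genes tested; pairs of a rescue with number 4 fall to -0.44 to -1.16, while shKdm6b against control stays between -0.06 and 0.12.

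By gene, the smallest p of the active rescue against shKdm6b were those of Rps27, Rpl34 and Rps21. Rps27 was at 1.97, 1.63, 1.98, 11.5 and 0.853 CPM in shKdm6b and at 1.41, 1.62, 1.86, 5.07 and 1.12 CPM in the active rescue, with a paired change of -0.34 ± 0.27. Number 4 was the highest in both groups. The paired values were -0.19 ± 0.16 for Rpl34 and -0.24 ± 0.22 for Rps21. In the dead rescue Rps27 was at 1.59, 3.45, 2.12, 14.3 and 1.93 CPM, with a paired change of 0.43 ± 0.26 against shKdm6b, beside -0.15 ± 0.16 for Rpl34 and -0.11 ± 0.17 for Rps27l, a p53-responsive paralogue of Rps27.

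Between the active and the dead rescue, which differ in whether the domain is active, 0 members passed (0.00654% of all genes with pairing, 0% without); DESeq2 also called 0, and at an unadjusted p under 0.05 edgeR counted 1 with pairing and 0 without. The paired median was -0.07, against 0.01 over all genes, with 3 of 81 above 0. It was -0.02 with 27 of 81 above 0 once the libraries numbered 4 were left out. Rps27 and Rpl39 were lower in the active rescue in 5 of 5 pairs (2.47% of members, against 5.50% of all genes). Rps27 had the smallest p, with a paired change of -0.77 ± 0.27 (unadjusted p = 0.0108 in edgeR's fit, adjusted p = 1.00), on the few counts described above. Rpl31 and Rpl39 followed with -0.15 ± 0.17 and -0.14 ± 0.18.

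Against control, whose libraries both comparisons share, 0 members passed in the active rescue (1.96% of all genes with pairing, 0% without) and 0 in the dead rescue (1.18 and 0%). DESeq2 called 0 in both, and at an unadjusted p under 0.05 edgeR counted 0 in the active and 1 in the dead rescue with pairing, and 0 without. The paired medians were -0.06 with 11 of 81 above 0, and 0.03 with 52 of 81 above 0. Over all genes they were 0.02 and 0.004. In the dead rescue the median without pairing was -0.03, so its sign differed between the fits. Without the libraries numbered 4 both medians were higher, at 0.14 and 0.16, with 80 and 78 of 81 members above 0. In that fit 1 member passed in the active rescue, Rps4l, at 0.39 ± 0.10 (adjusted p = 0.0407, edgeR), where 4.6% of all genes passed. With all numbers its paired change was 0.17 ± 0.18 (adjusted p = 0.800). Rps27, whose reads are divided with its identical copy, was higher in the dead rescue than in control in 5 of 5 pairs (0.56 ± 0.26, adjusted p = 0.460, edgeR). Summed with Rps27rt, it was lower in the dead rescue in number 1 (141 against 177 CPM) and number 4 (194 against 287 CPM). It was higher in the other numbers. In that comparison 1.23% of members moved the same way in 5 of 5 pairs, against 12.1% of all genes. In the active rescue against control the shares were 0% of members and 11.3% of all genes.

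The precision of these comparisons limits what could be seen. The median SE of a member's log2 fold change was 0.33 without pairing and 0.18 with it. Of a member's variance in log2 CPM, a median of 1.19% lay between groups, 73.2% between replicate numbers and 25.7% in the rest, against 4.26, 71.7 and 21.9% over all genes. Group took at most 5.57% for any member.

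The replicate number was therefore the main axis along which these genes moved. With number as a factor beside group, 80 of 81 members differed between numbers (edgeR F test over 4 coefficients), where 84.7% of all genes did, a share near that of the members. By direction, in number 4 against the mean of numbers 1 to 3, 78 of 81 were higher and 0 lower, where 34.5% of all genes were higher and 35.1% lower. The median of the members was 0.87, against 0.01 over all genes. Against number 5, number 4 was likewise higher for 78 of 81 and lower for 0 (30.9 and 37.1% of all genes), with a median of 0.84. The SE and p of these contrasts measure the spread left after group and number, not the spread between numbers. They describe these 5 numbers alone. Which numbers to contrast was chosen with earlier results of these data known, among them the Rn45s share, and not beforehand.

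**Figure D3:**
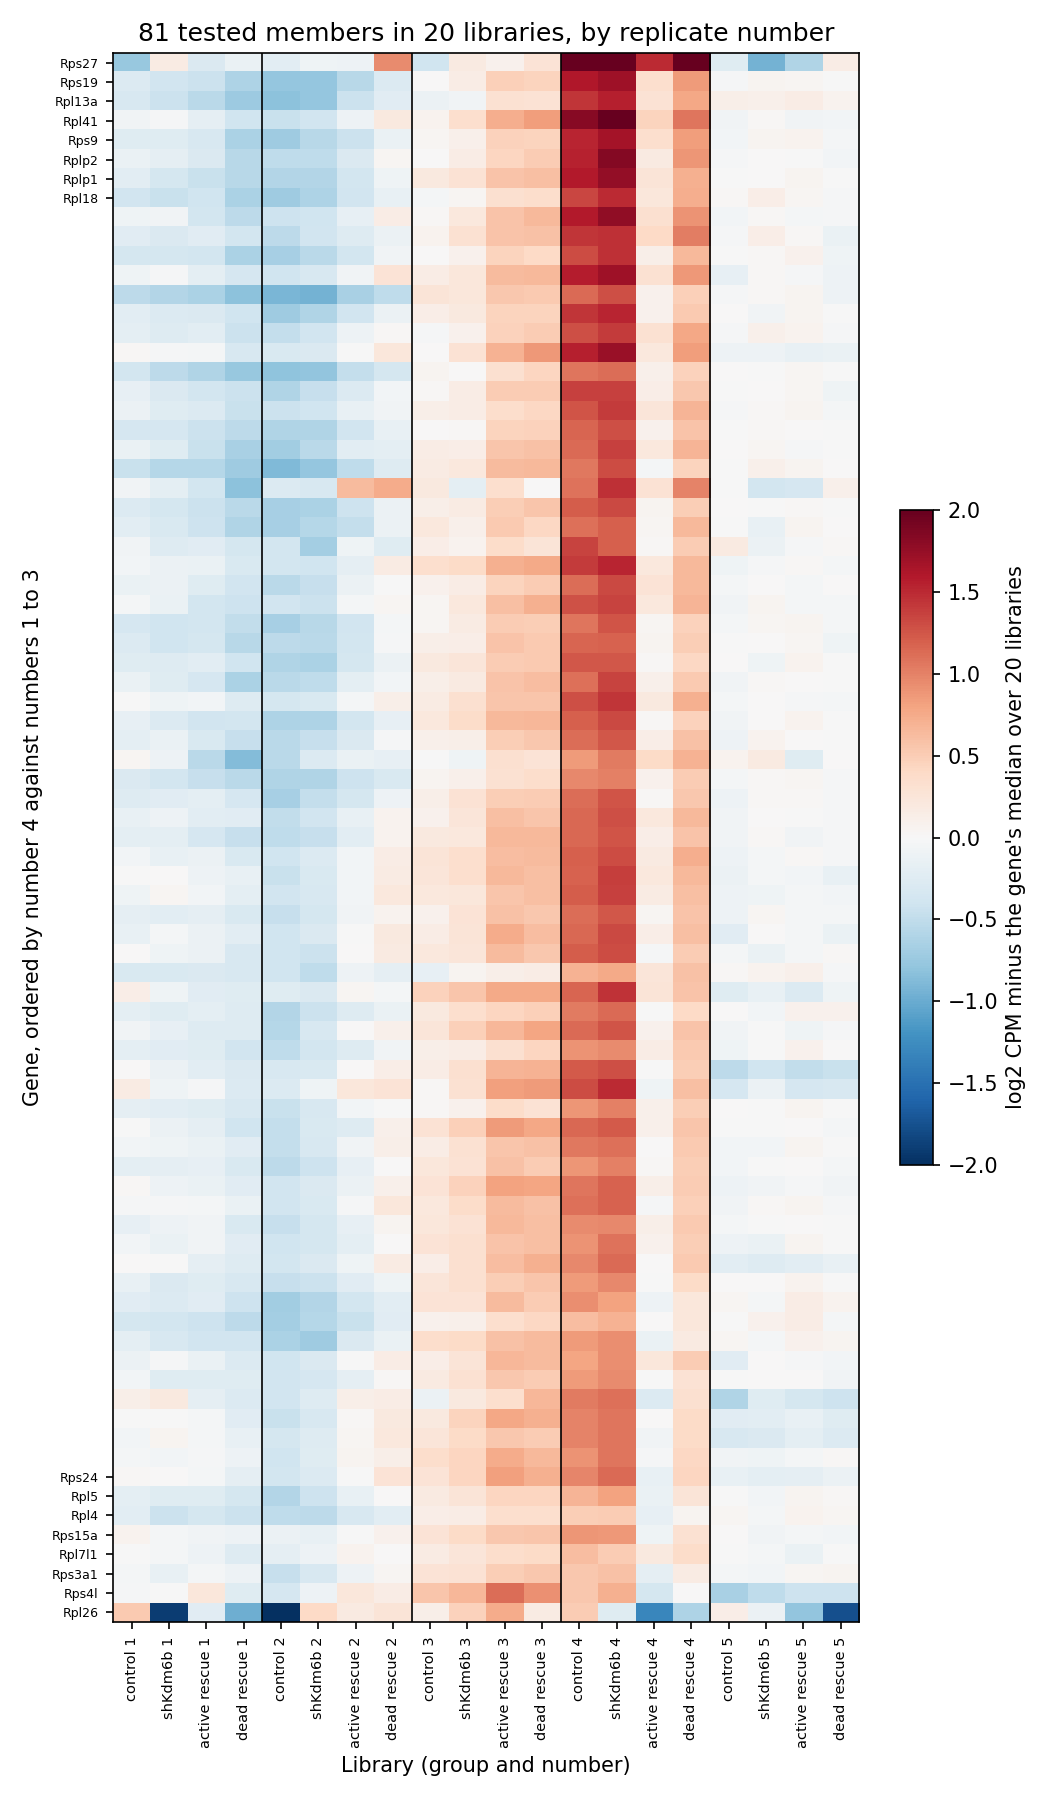
Log2 CPM (0.1 added) of the 81 tested members, each minus its own median over 20 libraries, with libraries in columns grouped by replicate number (black lines) and genes in rows ordered by the change of number 4 against numbers 1 to 3; the rows at the top and bottom are named. Control 4 and shKdm6b 4 are red in nearly every row, numbers 1 and 2 are mostly blue and number 5 is near 0. Rps4l and Rpl26 at the bottom have other patterns, though Rps4l also lies above its median in control 4 and shKdm6b 4.

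Among small-subunit genes the fitted change in number 4 was largest for Rps27, whose value depends on how reads were divided with its copy: it was 2.61 ± 0.21 for Rps27 as counted and 0.45 with the counts of Rps27rt added. The next was Rps19. Rps19, whose human gene is the one most often mutated in Diamond-Blackfan anaemia, was at 158, 112, 192, 577 and 187 CPM in control 1 to 5 and at 147, 111, 211, 619 and 199 CPM in shKdm6b. It was at 142, 129, 267, 242 and 195 CPM in the active and 124, 158, 261, 344 and 190 CPM in the dead rescue. Number 4 was the highest of its group in 3 groups, and lay below number 3 in the active rescue. The fitted change of number 4 against numbers 1 to 3 was 1.44 ± 0.17 (SE; adjusted p = 2.6e-06, edgeR). For Rps9, a protein near the mRNA entry of the small subunit, it was 1.33 ± 0.17. Rps27a, made as a fusion with ubiquitin, rose by 0.78 ± 0.18, Rps6 by 0.63 ± 0.13 and Rpsa by 1.13 ± 0.18.

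Among large-subunit genes Rpl13a, a member of the GAIT complex that silences inflammatory mRNAs, was at 474, 337, 546, 1588 and 641 CPM in control 1 to 5. It was at 438, 345, 565, 1735 and 638 CPM in shKdm6b, at 407, 440, 735, 726 and 659 CPM in the active and at 359, 504, 722, 1017 and 621 CPM in the dead rescue. Number 4 was the highest in control, shKdm6b and the dead rescue, and number 3 in the active rescue. The fitted change was 1.39 ± 0.17. Rpl41, the smallest ribosomal protein, rose by 1.37 ± 0.20, and the acidic stalk proteins Rplp1 and Rplp2 rose by 1.29 ± 0.19 and 1.30 ± 0.19, while Rplp0 that anchors them rose by 0.62 ± 0.11. Rpl10, among the last proteins to join the subunit, rose by 0.63 ± 0.15, Rpl5 by 0.51 ± 0.13 and Rpl11 by 1.08 ± 0.15.

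The smallest changes that passed were those of Rpl7l1 (0.38 ± 0.08), Rps15a (0.41 ± 0.13) and Rpl4 (0.41 ± 0.11). Rps15a stayed between 194 and 398 CPM over the 20 libraries, and Rpl4 between 455 and 928 CPM. The 3 members that did not pass were Rps3a1 at 0.27 ± 0.12 (adjusted p = 0.0534), Rps4l at 0.02 ± 0.16 and Rpl26 at -0.31 ± 0.50. Rpl26 varied from 1.38 to 20.9 CPM with no order by group or number. Members with the pyrimidine tract had a median of 0.91 (n = 29) and tested members without it one of 0.83 (n = 31); that difference was not tested.

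Number 5 stood near the mean of numbers 1 to 3, which were not alike. The mean log2 CPM over tested members was 7.43, 7.40 and 8.04 in numbers 1, 2 and 3. It was 8.43 in number 4 and 7.62 in number 5. In number 5 against the mean of numbers 1 to 3, 0 members were higher and 2 lower, where 20.9 and 16.6% of all genes were, and the median was 0.00. With the control and shKdm6b libraries alone the counts were 17 higher and 8 lower, where 18.1 and 15.5% of all genes were, and with the rescues alone 0 and 9, where 18.9 and 13.1% were. The 2 were Rps4l (-0.77 ± 0.17) and Rpl37a, a zinc-binding protein of the large subunit, at -0.55 ± 0.19. Rpl37a was at 145, 157, 147 and 153 CPM in the 4 libraries numbered 5, below each of the other 16, which lay between 167 and 509 CPM.

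The rise in number 4 was not the same in the 4 groups. Taken within a group, number 4 minus the mean of numbers 1 to 3 had a median over members of 1.29 in control and 1.38 in shKdm6b, with 81 of 81 members higher in each. It was 0.07 in the active rescue, with 50 of 81 higher, and 0.48 in the dead rescue, with 78 of 81 higher. The medians over all genes were between -0.03 and 0.00. Within numbers 1 to 3 a member's log2 CPM already spanned a median range of 0.64 in control and 0.67 in shKdm6b. That range was 0.82 in the active and 0.94 in the dead rescue. Adding a term for the libraries numbered 4 of the 2 rescues to the fit, a test chosen after these values were seen, found 76 of 81 members lower in the rescues than the sum of group and number gives and 0 higher, where 17.2% of all genes were lower and 22% higher. The median of this difference was -1.02. The 5 members that did not pass were Rpl7l1, Rps27, Rpl30, Rpl34 and Rpl26. In the rescue libraries alone, 35 members were higher in number 4 than in numbers 1 to 3, where 21.4% of all genes were, and in the control and shKdm6b libraries alone 80 were, where 37.2% of all genes were.

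**Figure D4:**
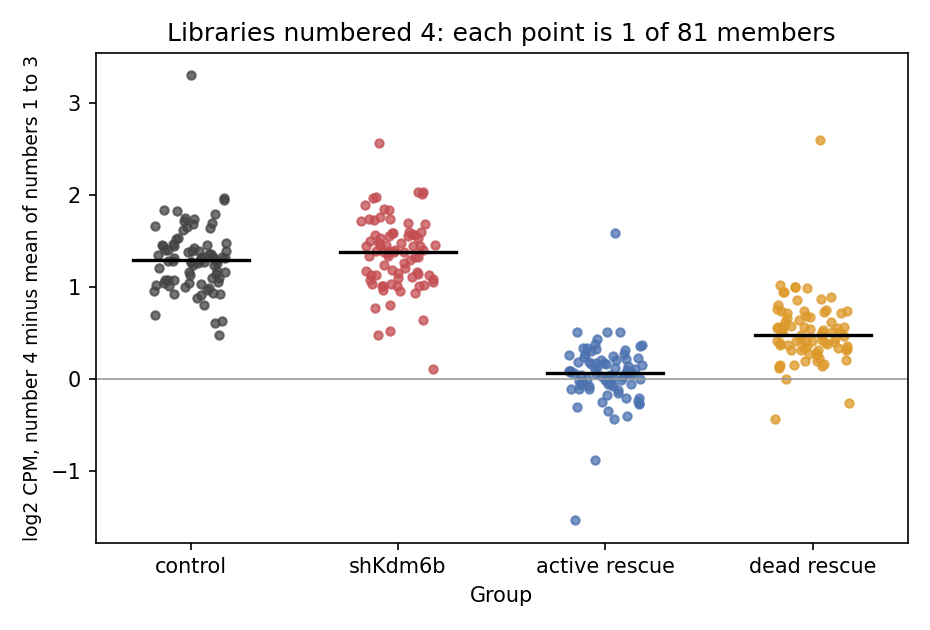
Log2 CPM (0.1 added) of number 4 minus the mean of numbers 1 to 3 within each group (y axis), for the 4 groups (x axis); each point is a member and the black line the median. Control and shKdm6b points lie around 1.29 and 1.38, those of the active rescue around 0.07 and of the dead rescue around 0.48.

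By gene the difference was largest for Rpl41 (-1.33 ± 0.24) and Rpsa (-1.33 ± 0.17). Rpsa reached 1738 CPM in control 4 and, in shKdm6b 4, 1861 CPM, against 683 CPM in active rescue 4 and 928 CPM in dead rescue 4, while the number 5 libraries of the 4 groups lay between 613 and 668 CPM. Astrocyte markers were high in all 4 libraries numbered 4, with sums of 15235, 13973, 11733 and 11819 CPM in control, shKdm6b, active and dead rescue, and granule neuron markers low, with 2595, 1920, 2677 and 3103 CPM. Microglia markers summed to 1608, 553, 262 and 365 CPM in the same order. In bulk RNA, more cells of a type and more RNA per cell cannot be told apart, and the part of these cells in the members' rise was not tested.

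Members are short genes, and short genes in general were higher in number 4. Among the 28 members with 300 to under 450 coding bases, 27 passed as higher, 96.4%, against 61.0% of 602 other genes of that length, and their medians were 0.92 and 0.54. From 600 to under 900 coding bases it was 19 of 20 members, 95%, against 49.0% of 1881 others, with medians of 0.83 and 0.29. Of genes with 900 coding bases or more, 28.2% of others were higher. Within the members, the change of number 4 against numbers 1 to 3 had a Spearman correlation of -0.21 with coding length over 79 genes. Over 14029 other genes it was -0.38. With the GC percent of the transcript, the Spearman correlation of that change was 0.49 in the members and 0.34 in other genes. These genes share their libraries and are no replicates. The part of transcript length or GC percent in the result was not tested.

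Other genes of the translation machinery were taken from lists chosen with earlier results of these data known. Their counts in number 4 stand beside 34.5% of all genes higher and 35.1% lower, and those in number 5 beside 20.9 and 16.6%, and no difference between a list and all genes was tested. Mitochondrial ribosomal proteins, which build the separate ribosome of that organelle, were higher in number 4 for 62 and lower for 2 of 77, with a median of 0.55. Mrps6 rose by 1.53 ± 0.11. They were also lower in number 5 for 30 of 77 (median -0.28). Of 26 translation factors and other genes with pyrimidine tracts, 15 were higher and 5 lower in number 4 (median 0.33), among them Fau (1.21 ± 0.18), the ubiquitin-like fusion that supplies a small-subunit protein, and the elongation factor subunit Eef1g (0.95 ± 0.12).

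Of 34 genes that build ribosomes 10 were higher and 10 lower in number 4 (median -0.07), shares near those of all genes; Nhp2 and Gar1, of the pseudouridylation complex, rose by 0.94 ± 0.18 and 0.89 ± 0.14. Of 14 snoRNA host genes 8 were higher and 1 lower (median 0.44), among them Snhg12 (1.02 ± 0.16). Of 26 regulators of ribosomal protein expression 14 were lower and 7 higher (median -0.21), the lower ones including Mtor itself (-0.89 ± 0.16) and its inhibitor Tsc1 (-0.89 ± 0.10). Of 10 S6 kinase genes 6 were lower and 3 higher, with Rps6ka5 at -1.23 ± 0.26.

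In shKdm6b against control with pairing, where 4.14% of all genes passed, these lists held 0 or 1 call each. Translation factors, ribosome biogenesis genes, S6 kinases and mitochondrial ribosomal proteins held 0 calls each over 26, 34, 10 and 77 tested genes in edgeR. Their median log2 fold changes were 0.04, -0.08, -0.10 and 0.04. Their counts at an unadjusted p under 0.05 were 0, 5, 1 and 0. The share of all genes at that unadjusted threshold is not reported here, so these counts cannot be set against it. Of 26 regulators 1 rose, the Myc family gene Mycl (0.67 ± 0.14, adjusted p = 0.0114), and of 14 snoRNA hosts 1 rose, the neuronal Snhg11 (1.21 ± 0.31, adjusted p = 0.0371).

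Paralogue pairs allow a comparison within a library that needs no scaling. Of 7 pairs 4 had at least 10 counts of both genes in every library, which gave 24 comparisons. The log2 ratio of Rpl22l1 to Rpl22 was -2.49, -2.51, -2.53, -1.96 and -2.12 in control 1 to 5 and -2.77, -2.92, -2.73, -2.28 and -2.66 in shKdm6b. It was -2.61, -2.61, -2.82, -2.73 and -2.53 in the active and -2.62, -2.93, -2.90, -2.53 and -2.44 in the dead rescue. Control was the highest of the 4 groups in every number. The mean differed from control by -0.35 in shKdm6b, -0.34 in the active and -0.36 in the dead rescue, lower in 5 of 5 pairs each time. The exact two-sided permutation p were 0.0714, 0.0159 and 0.0635 (0.571, 0.381 and 0.571 after adjustment over the 24), so none passed; the exact sign-flip p of the pairs was 0.0625 in each, the smallest that 5 pairs allow. The 3 comparisons share the control libraries. Among the 3 groups with the shRNA the differences were -0.01 to 0.02.

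**Figure D5:**
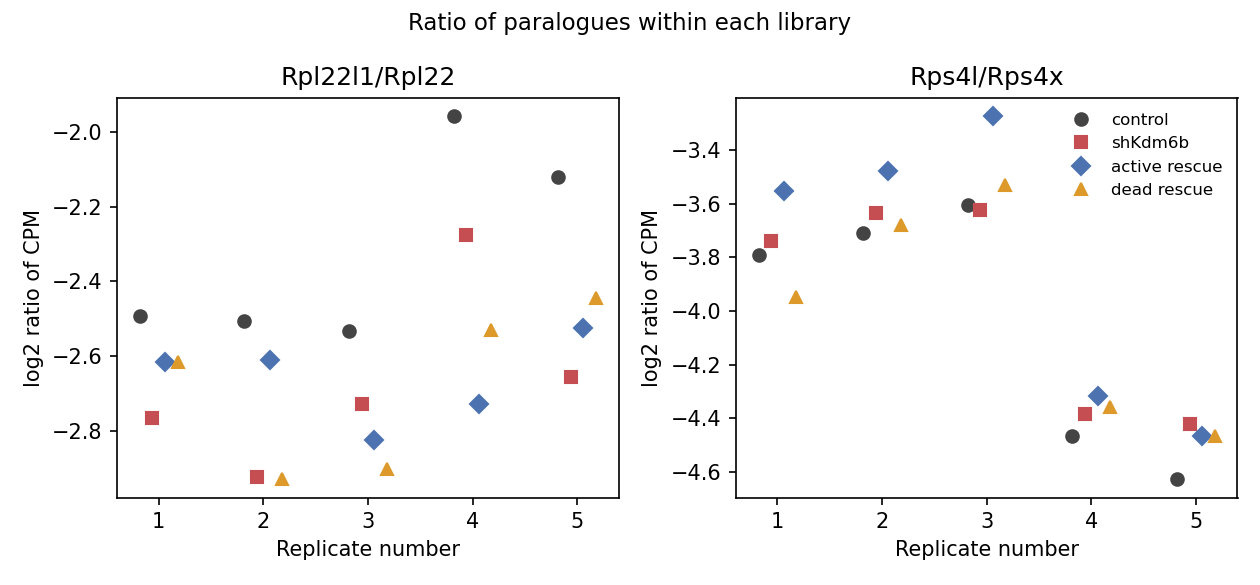
Log2 ratio of CPM of Rpl22l1 to Rpl22 (left) and of Rps4l to Rps4x (right) in each library (y axis) against the replicate number (x axis), with a marker for each group. In the left panel the control point is the highest in each number; in the right panel numbers 1 to 3 lie between -3.27 and -3.95 and numbers 4 and 5 between -4.32 and -4.63.

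Rps4l against Rps4x, the X-linked gene of a small-subunit protein, divided the libraries by number and not by group. The log2 ratio lay between -3.27 and -3.95 in the 12 libraries numbered 1 to 3 and between -4.32 and -4.63 in the 8 numbered 4 and 5, the division also seen in Rn45s and Malat1. It was higher in the active rescue than in control in 5 of 5 pairs, with a mean difference of 0.22 (exact permutation p = 0.500, exact sign-flip p = 0.0625). The ratio of Rpl7l1 to Rpl7 differed by -0.07 to 0.06 between groups. That of Rps27l to Rps27 varied with the few Rps27 counts, from 2.62 to 6.03, lowest in dead rescue 4.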

How the data were processed

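RNA of the 20 samples was extracted with the RNAqueous Micro Kit, per the labels' protocols. The authors deposited estimated counts per gene (expected counts), named as salmon output; the build named is mm10, per the submitters' processing notes; no source used here names salmon's version or annotation. Each column was matched to its sample by name; 0 were left over. Chi-square per degree of freedom between 2 libraries of 1 group was 28.7 to 410, far above sampling noise, and none was merged. Whether libraries are separate cultures or animals is unstated; if not, p-values measure technical spread.

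Counts were rounded, filtered with filterByExpr (15284 of 24411 genes kept), scaled by TMM and tested with edgeR 4.0.16 (R 4.3.3; glmQLFit, robust, two-sided, Benjamini-Hochberg over all tested genes, threshold 0.05). DESeq2 1.42.0 was an alternative. The planned fit had no block. Same-numbered libraries correlated in their deviations from group means in all 30 pairs (r 0.361 to 0.881; limit 0.1), so the fit with the number as block is given beside it. Log2 CPM used a prior count of 1. Members, lists and the contrasts between numbers were chosen with earlier results of these data known. Genes were named by rule: up to 12 members per direction past the threshold, otherwise the 3 with the smallest p; the 3 highest and lowest per kb; the 4 with the largest and smallest spread over numbers; paralogue pairs; and stalk and named-role members; others are named where a count or feature singled them out after their values were seen. Some genes that the rule names are not reported here. The fits were also run on simulated counts with changes placed in randomly picked genes of shKdm6b, and the outcome is not reported here. Shifts shared by the members were not simulated.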

Additional observations from a re-analysis of the deposited data

Results flagged for a closer look

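In control, library 4 lay far from the other 4 for the summed share of the members (5.06% of counts) and for Rps27 (13.2 CPM), Rps19 (577 CPM), Rpl13a (1588 CPM), Rpsa (1738 CPM), Rpl22l1 (65.8 CPM) and Rpl41 (861 CPM). In shKdm6b, library 4 lay as far from the rest for the share (5.50%) and for Rps27 (11.5 CPM), Rps19 (619 CPM), Rpl13a (1735 CPM), Rpsa (1861 CPM), Rpl22l1 (58.5 CPM) and Rpl41 (983 CPM). In the rescues Rps27 alone stood apart, at 5.07 CPM in active rescue 4 and 14.3 CPM in dead rescue 4; its reads are divided with an identical copy. The gap to the nearest library was above Dixon's critical value in 16 of 48 groups tested. The 12 quantities tested share their libraries, and some of the genes are members with the largest spread over numbers in these same data. The count therefore cannot be set against the 1 in 20 that chance flags.

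The effect of number 4 differed between the rescue libraries and those of control and shKdm6b, by a median log2 difference of -1.02 over members, in a test chosen after the values were seen. What the number stands for is not in the labels.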

How the results depend on the processing

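Over 113 results and 1965 alternatives (scaling, filter, tool, replicate block, left-out libraries), 1834 kept their direction and call or stayed within their spread, 17 lost and 10 gained a call, 71 turned direction and 33 moved. The count of members that passed was 0 in each comparison of groups under each alternative run, with and without the replicate block and in DESeq2, except for 1 (Rps4l) in the paired active rescue against control without number 4. With RLE scaling or TMM factors from other genes, 79 and 78 members were higher in number 4 than in numbers 1 to 3, and with near-identical copies added 78; leaving out single libraries gave 71 to 79, and 73 to 80 against number 5. Alternatives that split or drop groups, and those on copies, were chosen after seeing the data. Counts were fewest for Rps27 and the 3 members not tested, and whether depth set any result was not tested. The cause of each change below was not tested.

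Without the libraries numbered 4, the paired values turned to 0.0078 for Rps21 in active rescue against shKdm6b, 0.10 for Rps27l in dead rescue against shKdm6b, and 0.022 for Rpl22l1 and 0.019 for Rps15a in active rescue against control. With numbers 1 to 3 alone they were 0.024 for Rpl34 and 0.030 for Rps21 (active rescue against shKdm6b), 0.11 for Rps27l (dead rescue against shKdm6b), 0.12 for Rpl22l1 and 0.062 for Rps15a (active rescue against control) and 0.016 for Rpl26 (dead rescue against control). Leaving out single libraries with the block, the ranges were -0.25 to 0.0026 for Rpl31 (active rescue against dead rescue), -0.24 to 0.025 for Rpl39 (active rescue against dead rescue) and -0.18 to 0.071 for Rps27l (dead rescue against shKdm6b).

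In the control and shKdm6b libraries alone, Rpl26 in number 4 against numbers 1 to 3 turned to 0.34, and 17 members were higher in number 5. In the rescue libraries alone, 35 members were higher in number 4 than in numbers 1 to 3 and 40 than in number 5, and the change in number 4 was -0.55 for Rps4l, -0.13 for Rps3a1 and -0.034 for Rps15a. Without single libraries, the change of Rps4l in number 4 ranged from -0.18 to 0.26 and the count of members higher in number 5 from 0 to 5. The term for number 4 in the rescues kept 70 to 79 members lower, with medians from -1.25 to -0.82; the largest move came without dead rescue 4.

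Without single libraries, the differences in the log2 ratio of Rpl22l1/Rpl22 that changed sign ranged from -0.038 to 0.084 in active rescue against dead rescue, -0.054 to 0.11 in active rescue against shKdm6b and -0.077 to 0.084 in dead rescue against shKdm6b. For Rpl7l1/Rpl7 they ranged from -0.076 to 0.048 in active rescue against control, -0.0058 to 0.12 in active rescue against dead rescue, -0.099 to 0.10 in active rescue against shKdm6b, -0.16 to 0.040 in dead rescue against shKdm6b and -0.11 to 0.091 in shKdm6b against control. For Rps27l/Rps27 they ranged from -0.46 to 0.30 in active rescue against control, -0.20 to 0.41 in active rescue against shKdm6b and -0.55 to 0.18 in shKdm6b against control. For Rps4l/Rps4x they ranged from -0.10 to 0.16 in dead rescue against control, -0.15 to 0.082 in dead rescue against shKdm6b and -0.066 to 0.20 in shKdm6b against control.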
